A study of Mus musculus with 88 samples.

Results

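The 9 PRC1 subunit genes Cbx2, Cbx6, Cbx7, Cbx8, Pcgf2, Bmi1, Pcgf6, Rnf2 and Kdm2b were followed through every RNA measurement of a study of mouse embryonic stem cells (ESCs) that lack a subunit of PRC2. They were chosen by name, as 9 of the 54422 genes listed in the mesoderm or endoderm count table. The study holds 88 samples. Of these, 48 are bulk RNA-seq libraries labelled as the E14 ESC line, grown in serum with LIF, in which wild type (WT), Mtf2 null and Jarid2 null cells were sampled undifferentiated and after 5, 24 and 48 h in a protocol aimed at mesoderm or at endoderm, with 2 libraries per genotype, time and protocol. Another 24 are bulk samples of embryoid bodies (EBs, free-floating aggregates that differentiate once LIF is withdrawn) at days 0, 2, 4 and 7, with 1 sample per line and day for 3 lines labelled Mtf2 null, Jarid2 null and Eed null and for the WT lines matched to them by background, Pcl1-3 WT, JM8 and J1 in that order. The last 16 are single-cell libraries of E14 EBs at days 0, 4, 7 and 10, with 1 library per day for WT cells and for each of the Eed, Jarid2 and Mtf2 nulls and 4949 cells in all. The Mtf2 null line carries a gene trap in both alleles. Each null genotype stands for 1 line in each experiment. The study's methods match these null lines to the 3 WT lines of the EB series, not to E14, so in the directed and single-cell comparisons genotype and line background cannot be told apart. The day 0 columns of the EB table carry a name for monolayer cells, although their labels give the tissue as EBs.

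Polycomb proteins hold developmental genes silent. PRC2 methylates lysine 27 of histone H3, with EED as a core subunit, while MTF2 and JARID2 mark its alternative forms, and PRC1 places ubiquitin on histone H2A. Every PRC1 holds a RING1 protein and 1 PCGF protein. Canonical PRC1 adds a CBX protein that reads the methyl mark, and variant forms carry RYBP or YAF2 in its place, so that the choice of CBX and PCGF subunit sets the form of the complex. In ESCs, CBX7 is the CBX subunit known to prevail, and it is known to give way to CBX2 and CBX8 as the cells differentiate.

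In undifferentiated WT cells, the 9 subunits spanned more than 2 orders of magnitude per unit of exon length. The levels below are RPKM, that is counts scaled to exon length in kilobases and to library depth, as the range over the 4 undifferentiated WT libraries, and positions are GRCm38. Among the CBX readers, Cbx7 (chr15:79915807-79971119) was highest at 20.8 to 25.004 RPKM. Cbx6 (chr15:79823896-79834688) reached 6.33 to 7.33 RPKM and Cbx2 (chr11:119022962-119031270) 4.23 to 5.58 RPKM. Cbx8 (chr11:119036305-119040969), which lies 5034 bases from Cbx2, was close to the limit of detection at 0.0536 to 0.153 RPKM. Among the PCGF subunits, Pcgf2 (chr11:97688823-97700497), which encodes MEL18 of canonical PRC1, stood at 11.5 to 16.8 RPKM. Pcgf6 (chr19:47033617-47050906), of the variant form PRC1.6, stood at 7.66 to 9.62 RPKM, and Bmi1 (chr2:18677018-18686629), the paralogue of Pcgf2, at only 0.868 to 1.16 RPKM. Rnf2 (chr1:151458004-151500955), the catalytic subunit RING1B, was the highest of the 9 at 31.2 to 35.1 RPKM. Kdm2b (chr5:122870665-122989823), which brings the variant form PRC1.1 to unmethylated CpG islands, stood at 6.34 to 8.98 RPKM. The ranges of Pcgf6 and Kdm2b overlapped, as did those of Kdm2b and Cbx6, and no other neighbours in the order did. Cbx6, Cbx7, Rnf2 and Kdm2b each share part of their span with another annotated gene, so their counts can hold reads of that neighbour.

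Bmi1 and Cbx8 had the highest ratios of Eed null to WT among the subunits at day 0 in single cells, and their promoters are shown for that reason. Both are from RefSeq on GRCm38.p6, that of Bmi1 at chr2:18676768-18677017 on the plus strand and that of Cbx8 at chr11:119040970-119041163 on the minus strand, and cover the bases upstream of the gene, 5′ to 3′ on the gene's strand, with each CG in capitals.
Bmi1: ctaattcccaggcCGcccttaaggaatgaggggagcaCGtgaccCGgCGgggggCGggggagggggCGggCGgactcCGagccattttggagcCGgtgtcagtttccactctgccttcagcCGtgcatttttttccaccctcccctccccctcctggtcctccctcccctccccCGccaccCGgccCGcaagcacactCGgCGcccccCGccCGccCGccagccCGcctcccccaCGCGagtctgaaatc
Cbx8: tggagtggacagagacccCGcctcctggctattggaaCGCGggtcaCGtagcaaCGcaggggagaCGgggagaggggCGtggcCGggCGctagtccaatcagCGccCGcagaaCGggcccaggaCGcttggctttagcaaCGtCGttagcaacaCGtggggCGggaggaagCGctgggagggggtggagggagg
The motif searched was CG, which reads the same on both strands. The 250 bases of the Bmi1 promoter hold 21 CG with 70.4% G or C, and 16.3% of the 32851 promoters in the table hold at least as many in a window of that length, with a median of 6. The 194 bases of the Cbx8 promoter hold 18 CG with 67.5% G or C, and 11.4% of promoters hold at least as many, with a median of 4. CpG-rich promoters are a known ground for both KDM2B and PRC2. A CG count does not show that either protein was bound here.

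Several labels need a word before the results. In the directed series, Mtf2 RNA in Mtf2 null cells fell by 3.80 on the log2 scale in undifferentiated cells (32.5 ± 1.93 against 453 ± 71.3 CPM, counts scaled to library depth, SD, n = 4). Jarid2 RNA in libraries labelled Jarid2 null fell by only 0.41 there (306 ± 10.7 against 407 ± 52.6 CPM, SD, n = 4) and was not lower at 48 h (log2 difference 0.09 in mesoderm, 0.19 in endoderm), so the RNA level does not check this label. In the EB table, the sample labelled Eed null at day 0 had 111 CPM of Eed against 106 in J1, and the lowest Mtf2 level at day 0 (127 CPM) was in the sample labelled Jarid2 null rather than in that labelled Mtf2 null (317 CPM), so EB results are given by label, with and without day 0. Leaving out day 0 does not settle the labels. Eed stood at 206, 107 and 58.2 CPM in the line labelled Eed null at days 2, 4 and 7, and at 246, 79.0 and 52.5 CPM in J1 (0.10 ± 0.21 over all 4 days, limma adjusted p = 0.804). Mtf2 stood at 237, 231 and 164 CPM in the line labelled Mtf2 null on those days, and at 442, 325 and 383.5 CPM in Pcl1-3 WT (-0.75 ± 0.30 over all 4 days, limma adjusted p = 0.0857). In the single cells each targeted RNA was below WT on each day in the line labelled null for it. Defining markers of the intended lineages were scarce in WT cells at 48 h: the summed level of 5 definitive endoderm markers was 1.17 CPM in the endoderm series and that of 5 mesoderm markers 7.03 CPM in the mesoderm series, while 6 pluripotency markers still summed to 1209 and 1516 CPM. The series are therefore named by protocol. The difference between undifferentiated replicates 1 and 2 was shared by both series (correlation across genes 0.64 in WT, 0.64 in Mtf2 null, 0.59 in the libraries labelled Jarid2 null), and whether same-numbered libraries came from 1 culture was not tested. Library depth was 9111880 to 16898264 counts in the directed series, 3005707 to 22944105 reads per EB column and a median of 4997 to 10603 unique molecular identifiers (UMIs) per cell in the single-cell libraries. The duplicates of the directed series are technical by the study's methods, so p-values measure the spread between these libraries alone.

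In undifferentiated cells without Mtf2, Cbx2 was lower while Bmi1, Kdm2b and Pcgf2 were higher. The fit took the 12 undifferentiated libraries together, and a gene passed at an adjusted p under 0.05. Of the 8 subunits with enough counts to be tested (Cbx8 had too few), 5 were higher and 2 lower, against 54.5% of all 16655 genes tested that passed. Cbx2 stood at 21.8, 18.8, 22.6 and 18.1 CPM in WT and at 10.5, 10.2, 8.14 and 10.0 CPM in Mtf2 null libraries, with no overlap (log2 fold change -1.07 ± 0.11 SE, edgeR adjusted p = 1.09e-06). Bmi1 stood at 3.36, 4.71, 3.68 and 3.49 CPM in WT and at 6.22, 5.90, 7.56 and 6.53 CPM in Mtf2 null libraries, again apart (0.78 ± 0.16, edgeR adjusted p = 0.000748). Both series thus gave the same order for these subunits. The share of all genes without overlap was not counted, so the lack of overlap adds little to the test. Kdm2b ranged from 69.3 to 94.97 CPM in WT and from 107 to 123 CPM in Mtf2 null (0.51 ± 0.09, edgeR adjusted p = 0.000318). Pcgf2 ranged from 40.8 to 57.7 CPM in WT and from 64.9 to 70.0 CPM in Mtf2 null (0.46 ± 0.10, edgeR adjusted p = 0.000758). Those 4 passed also when same-numbered libraries of both series were summed to 1, a fit added after the shared difference was seen. The other calls were lost in that fit, namely Cbx6 (-0.36 ± 0.07 in the first fit), Cbx7 (0.26 ± 0.07) and Rnf2 (0.21 ± 0.08). Pcgf6 did not pass in either (0.15 ± 0.08). A summed level of 4 primitive endoderm markers of 107 to 108 CPM in Mtf2 null against 18.7 to 20.4 CPM in WT moved with these differences, and its part in them was not tested. In bulk RNA, fewer cells of a type and less RNA per cell cannot be told apart.

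**Figure D1:**
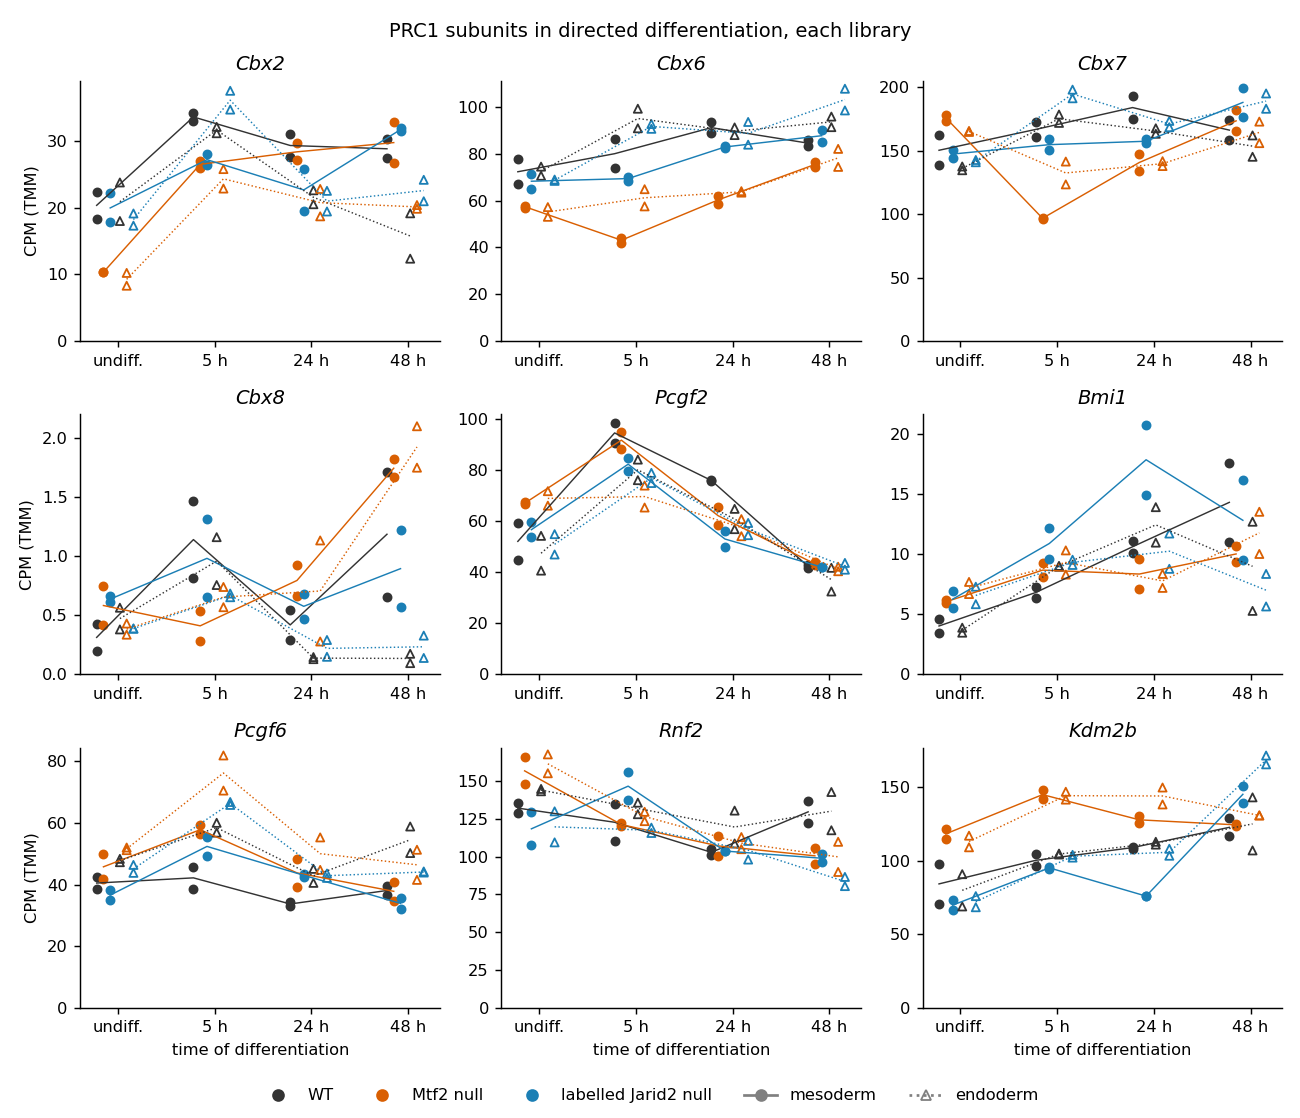
Each panel plots CPM (y axis) of 1 subunit in every library of the directed series against time (x axis). Filled circles and solid lines are the mesoderm series, open triangles and dotted lines the endoderm series, lines join the means of 2 libraries, and colours mark the genotype. Undifferentiated Mtf2 null libraries lie below WT for Cbx2 and above it for Kdm2b, and Cbx8 at 48 h stands at 2.09 and 1.75 CPM in Mtf2 null and at 0.173 and 0.0942 CPM in WT endoderm libraries, with Mtf2 null mesoderm libraries at 1.82 and 1.66 CPM.

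Undifferentiated libraries labelled Jarid2 null differed from WT in 1 subunit, Bmi1, against 20.4% of genes that passed. Bmi1 stood at 6.75, 5.53, 6.89 and 5.73 CPM there, above each WT library (0.71 ± 0.16, edgeR adjusted p = 0.00584). Here too, the share of all genes without overlap was not counted. With same-numbered libraries summed Bmi1 no longer passed (0.72, edgeR adjusted p = 0.0939). Cbx2, which was lower without Mtf2, stood at 17.0 to 21.5 CPM, overlapping WT (-0.13 ± 0.10, edgeR adjusted p = 0.41).

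Over the WT time course, Bmi1 and Kdm2b rose under both protocols, Pcgf2 rose early, and Cbx7 did not pass at 48 h. At 48 h, 5 of the 9 subunits passed in the mesoderm series against 35.4% of genes, and 3 of the 9 in the endoderm series against 34.9%. Bmi1 went from 3.45 and 4.60 CPM to 11.0 and 17.6 CPM in mesoderm (1.81 ± 0.28, edgeR adjusted p = 3.43e-05). In endoderm it went from 3.88 and 3.47 CPM to 5.28 and 12.7 CPM (1.28 ± 0.32, edgeR adjusted p = 0.00355). That second value rests on 1 library, since without WT 48 h replicate 2 it was 0.53 and did not pass. Kdm2b went from 97.6 and 70.9 CPM to 129 and 117 CPM in mesoderm (0.55 ± 0.12) and from 90.8 and 68.9 CPM to 143 and 107 CPM in endoderm (0.65 ± 0.12), both past the test. Its undifferentiated and 48 h libraries did not overlap under either protocol. With 2 libraries per group this adds little to the test, and the share of all genes without overlap was not counted.

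Pcgf2 had its peak at 5 h. It stood at 90.5 and 98.4 CPM in mesoderm at 5 h against 59.2 and 44.8 CPM before (0.86 ± 0.11, edgeR adjusted p = 1.33e-05), and at 75.97 and 84.02 CPM in endoderm against 54.2 and 40.6 CPM (0.76 ± 0.13, edgeR adjusted p = 0.000282). By 48 h it was at 41.5 and 42.9 CPM in mesoderm, a fall that passed narrowly (-0.30 ± 0.12, edgeR adjusted p = 0.0487) and was lost without any of 3 of the 4 libraries behind it (WT 48 h replicates 1 and 2, undifferentiated replicate 1). Cbx7, the main CBX of ESCs, stood at 159 and 174 CPM in mesoderm and at 162 and 145 CPM in endoderm at 48 h, a level that overlapped its undifferentiated libraries in mesoderm (162 and 139 CPM). At 24 h it had passed with small rises (0.29 ± 0.11 and 0.28 ± 0.09), lost without 2 of 4 single libraries in mesoderm (24 h or undifferentiated replicate 2) and without each of 4 in endoderm. Rnf2 passed only in mesoderm at 24 h (-0.36 ± 0.12), and Pcgf6 at no time in WT.

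The protocols differed in Cbx2 and Cbx8. At 5 h Cbx2 had risen under both, to 33.1 and 34.2 CPM in mesoderm (0.73 ± 0.15) and to 32.1 and 31.2 CPM in endoderm (0.60 ± 0.17, lost without WT 5 h replicate 1 or undifferentiated replicate 2). It was still higher in mesoderm at 48 h, from 22.4 and 18.3 to 30.3 and 27.4 CPM (0.51 ± 0.15, lost without WT 48 h replicate 1 or undifferentiated replicate 2), and stood at 19.1 and 12.3 CPM in endoderm against 23.8 and 18.0 CPM before. Its change over 48 h was larger in mesoderm than in endoderm by 0.91 ± 0.24 on the log2 scale (edgeR adjusted p = 0.0138), in a test that 5.85% of genes passed. Cbx8 had 10 and 21 counts in WT mesoderm at 48 h and 2 and 1 counts in WT endoderm, a ratio of levels of 8.48 with an interval of 2.65 to 43.4 from counting error alone. Its difference in change also passed (3.56 ± 1.02, edgeR adjusted p = 0.03). Both differences were lost when single libraries were left out, in 4 of 8 cases for Cbx2 and in 5 of 8 for Cbx8.

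At 5 h, Cbx6 and Cbx7 were lower and Kdm2b and Pcgf6 higher in Mtf2 null cells under both protocols. In all, 4 of the 9 subunits passed under each protocol, against 28.7% of genes in mesoderm and 31% in endoderm. Cbx7 stood at 97.4 and 96.2 CPM in Mtf2 null mesoderm libraries at 5 h and at 161 and 173 CPM in WT (-0.79 ± 0.11, edgeR adjusted p = 1.09e-05). In endoderm it was at 142 and 124 against 179 and 172 CPM (-0.40 ± 0.09, edgeR adjusted p = 0.0018). Cbx6 stood at 44.2 and 42.01 against 74.1 and 86.3 CPM in mesoderm (-0.89 ± 0.10, edgeR adjusted p = 8.5e-07) and at 64.97 and 57.6 against 99.4 and 91.1 CPM in endoderm (-0.64 ± 0.10, edgeR adjusted p = 2.49e-05). For both readers every Mtf2 null library was below every WT library, which with 2 libraries per group adds little to the test.

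Kdm2b stood at 142 and 148 against 96.3 and 104 CPM in mesoderm (0.53 ± 0.12) and at 147 and 142 against 105 and 104 CPM in endoderm (0.46 ± 0.12) at 5 h. Pcgf6 stood at 56.4 and 59.2 against 45.7 and 38.7 CPM (0.45 ± 0.12) and at 70.5 and 81.9 against 60.1 and 56.9 CPM (0.38 ± 0.12). These subunits, too, did not overlap between genotypes, with the same limit of 2 libraries per group. The Pcgf6 calls were less firm, since 2 of the 4 single libraries left out in turn ended it in mesoderm and 3 of 4 in endoderm. By 24 h, Cbx6 was still lower in both (-0.60 ± 0.10 and -0.49 ± 0.09), and Cbx7 in mesoderm (-0.39 ± 0.11), with 3 of 9 subunits past the test in mesoderm against 22.8% of genes and 3 of 9 in endoderm against 26.2%.

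At 48 h, few subunits of Mtf2 null cells passed against WT, namely Rnf2 and, in endoderm, also Cbx8 and Cbx6. Of the 9, 1 passed in mesoderm against 27.9% of genes and 3 in endoderm against 38% of genes. In simulated data with a wider spread, this mesoderm fit recovered 24.3% of 2-fold changes, so subunits that did not pass may still differ. Rnf2 stood at 95.04 and 106 against 137 and 122 CPM in mesoderm (-0.37 ± 0.12, edgeR adjusted p = 0.0251) and at 89.8 and 110 against 117 and 143 CPM in endoderm (-0.38 ± 0.12, edgeR adjusted p = 0.0169). The genotypes did not overlap, again with 2 libraries each, yet 2 of 4 single libraries left out in turn ended each call. Cbx6 passed in endoderm (-0.26 ± 0.09), which 3 of 4 left-out libraries ended. Bmi1, higher in undifferentiated Mtf2 null cells, stood at 9.36 and 10.7 CPM in mesoderm at 48 h against 11.0 and 17.6 CPM in WT (-0.50 ± 0.25, edgeR adjusted p = 0.141).

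Cbx8 had 28 and 25 counts (2.09 and 1.75 CPM) in Mtf2 null endoderm libraries at 48 h and 2 and 1 counts in WT. The ratio of levels was 12.6, with an interval of 4.08 to 63.1 from counting error alone, and Cbx8 was the only subunit past the study's own limits there (adjusted p under 0.001 and a log2 change above 1), against 10.5% of genes (edgeR adjusted p = 0.000114). In mesoderm at 48 h, Mtf2 null libraries had 20 and 21 counts and WT 10 and 21 counts. Levels of 4 primitive endoderm markers summed to 431 CPM in Mtf2 null endoderm libraries at 48 h against 15.9 CPM in WT. Those of 5 mesoderm markers summed to 45.7 against 0.944 CPM. Only 2 of these 5 were above 1 CPM in the Mtf2 null libraries, with Hand1, Mesp1 and T below it. The part of cell make-up in the Cbx8 level was not tested.

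The lower Cbx2 of Mtf2 null cells passed the test in undifferentiated cells and at no later time. The effect of Mtf2 on Cbx2 at 48 h differed from that in undifferentiated cells by 1.02 ± 0.21 in mesoderm (edgeR adjusted p = 0.0026) and by 1.52 ± 0.25 in endoderm (edgeR adjusted p = 0.000168). Within Mtf2 null cells Cbx2 had already gone from 10.4 and 10.3 CPM to 26.96 and 26.02 CPM by 5 h of the mesoderm protocol (1.36 ± 0.16) and from 8.28 and 10.2 to 25.8 and 22.9 CPM in endoderm (1.40 ± 0.18). The Rnf2 effect changed the other way, by -0.61 ± 0.17 and -0.55 ± 0.17, which 2 of 8 libraries left out in turn ended in mesoderm and 4 of 8 in endoderm. This test of a changed effect was passed by 2 of 9 subunits in mesoderm against 18.1% of genes, and by 3 of 9 in endoderm, Cbx8 included, against 22%.

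**Figure D2:**
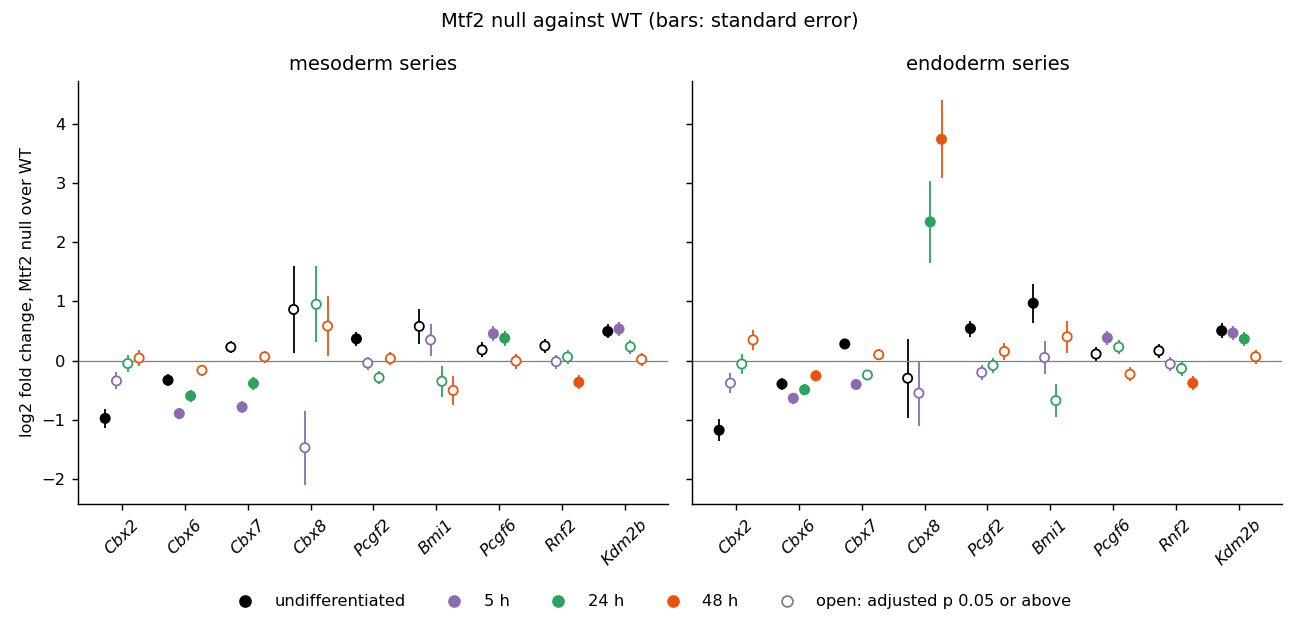
The log2 fold change of Mtf2 null over WT (y axis) is plotted for each subunit (x axis) at 4 times in the mesoderm series (left) and the endoderm series (right), with standard errors as bars. Filled points passed at an adjusted p under 0.05. Cbx2 passed in undifferentiated cells alone, at -0.98 and -1.18, and Cbx6 and Cbx7 are lowest at 5 h.

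Libraries labelled Jarid2 null departed from WT mostly at 24 h of mesoderm and 48 h of endoderm. At 24 h of mesoderm 4 of 9 subunits passed against 23.2% of genes. Pcgf2 was lower, at 49.7 and 56.2 against 76.1 and 75.6 CPM (-0.52 ± 0.11, edgeR adjusted p = 0.00263), and so was Kdm2b, at 75.7 and 76.1 against 108 and 110 CPM (-0.52 ± 0.12, edgeR adjusted p = 0.00324). Bmi1 was higher, at 20.8 and 15.0 against 11.1 and 10.1 CPM (0.76 ± 0.25), as was Pcgf6 (0.35 ± 0.13), and both of these calls were lost without any of 3 of the 4 libraries behind them. Those of Pcgf2 and Kdm2b were lost without Jarid2 null replicate 1. The groups did not overlap for any of the 4, which with 2 libraries per group adds little to the test that picked them. At 48 h of endoderm 3 of 9 passed against 7.22% of genes: Rnf2 was lower (86.5 and 80.4 against 117 and 143 CPM, -0.64 ± 0.12, edgeR adjusted p = 0.00406), Kdm2b higher (166 and 172 against 143 and 107 CPM, 0.43 ± 0.12) and Cbx7 higher (183 and 195 against 162 and 145 CPM, 0.30 ± 0.09). None of the 3 passed without WT 48 h replicate 2. The header of the count table gives these 2 Jarid2 null libraries another time, and they were taken as 48 h by the library number in their labels.

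By edgeR, no subunit passed at 48 h of mesoderm against 2.21% of genes, where 1 higher and 1 lower had an unadjusted p under 0.05 and DESeq2 called 1. None passed at 5 h either, against 0.212% of genes in mesoderm and 0.151% in endoderm, nor at 24 h of endoderm against 0.332%. An unadjusted p under 0.05 was held by 5 subunits at 5 h of mesoderm and by 0 at each of the other times, and DESeq2 called 0 at all 3. The share of all genes at an unadjusted p under 0.05, or called by DESeq2, is not given here. Counts at those limits are therefore not read as a result about the subunits.

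Under the study's own limits (adjusted p under 0.001 and a log2 change above 1 in size), 1 subunit was called in undifferentiated Mtf2 null cells (Cbx2, against 14.7% of genes), 1 in WT mesoderm at 48 h (Bmi1, against 8.64%) and, as said, Cbx8 in Mtf2 null endoderm at 48 h. None was called in undifferentiated Jarid2 null libraries (1.15% of genes), in Mtf2 null mesoderm (6.82%), in Jarid2 null mesoderm (0.169%) or endoderm (0.125%) at 48 h, in WT endoderm at 48 h (8.15%) or for the difference between protocols (1.35%).

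Of 27 other PRC1 genes, 14 were higher and 4 lower in undifferentiated Mtf2 null cells, 18 of 27 where 54.5% of all genes passed, with a median log2 change of 0.25 against -0.04 over all genes tested. The 3 past the study's limits were Scmh1 (1.72 ± 0.08), a sex comb protein of canonical PRC1, Bcor (1.22 ± 0.14), a subunit of PRC1.1, and Bcorl1 (-2.26 ± 0.14), the relative of Bcor. At 48 h, 8 were higher and 0 lower in mesoderm (median 0.21 against 0.01 over all genes, of which 27.9% passed), and 10 were higher and 1 lower in endoderm (median 0.27 against -0.02 over all genes, of which 38% passed), where Pcgf5 (1.92 ± 0.16) and Phc2 (1.28 ± 0.15) were among those past the study's limits. In libraries labelled Jarid2 null, 2 were higher and 2 lower when undifferentiated (20.4% of all genes passed), 1 and 0 at 48 h of mesoderm (2.21%), and 2 and 0 at 48 h of endoderm (7.22%). In WT, 10 were higher and 1 lower at 48 h of mesoderm (35.4% of all genes) and 10 and 4 at 48 h of endoderm (34.9%), with Bcor at 2.76 ± 0.16 and 1.94 ± 0.17.

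In EBs, Bmi1 was higher and Pcgf2 lower in each of the 3 lines labelled null than in the matched WT line. The test was limma on log2 CPM with the day as a block, so each line's 4 days stand in for replicates. Bmi1 stood at 17.3, 34.1, 37.1 and 46.1 CPM at days 0, 2, 4 and 7 in the line labelled Eed null, while J1 had 4.45, 4.91, 8.20 and 18.4 CPM (2.03 ± 0.42, limma adjusted p = 0.00545). In the line labelled Mtf2 null it stood at 3.62, 26.9, 34.3 and 41.1 CPM, against 5.68, 6.46, 5.41 and 6.43 CPM in Pcl1-3 WT (1.67 ± 0.42, limma adjusted p = 0.00983). In the line labelled Jarid2 null it stood at 10.3, 6.66, 15.4 and 28.3 CPM, against 2.20, 4.03, 5.31 and 13.0 CPM in JM8 (1.36 ± 0.42, limma adjusted p = 0.0354). The label was above its WT line on every day but day 0 of the Mtf2 label. Without day 0 the 3 values were 2.06, 2.40 and 1.13, and each passed.

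Pcgf2 was lower by log2 changes of -0.47 ± 0.15 (Eed label), -0.61 ± 0.15 (Mtf2 label) and -0.54 ± 0.15 (Jarid2 label), and below the WT line on all 4 days in each. Without day 0 it no longer passed for the Eed label (-0.35). In all, 2 of 9 subunits passed for the Eed label against 10.9% of genes, 2 for the Mtf2 label against 18.4%, and 4 for the Jarid2 label against 14.8%. The further calls of the Jarid2 label were Pcgf6, at 61.8, 67.3, 60.9 and 38.5 CPM against 124, 153, 97.1 and 62.5 CPM in JM8 (-0.89 ± 0.16, limma adjusted p = 0.000992), and Rnf2, at 122, 174, 115 and 121 CPM against 168, 271, 191 and 173 CPM (-0.59 ± 0.15, limma adjusted p = 0.0123). JM8 had the highest Pcgf6 of the 6 lines on each day. The calls rest on few samples, since leaving out single days left 0 to 2 subunits for the Eed label, 0 to 3 for the Mtf2 label and 1 to 4 for the Jarid2 label. The calls over all genes moved as well, between 284 and 1423 for the Eed label, 1054 and 3326 for the Mtf2 label and 758 and 2855 for the Jarid2 label. The Bmi1 call was lost without day 4 for the Eed label, without day 4 or day 7 for the Mtf2 label, and without day 2, 4 or 7 for the Jarid2 label. The Pcgf2 call of the Eed label was lost without any single day.

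Among the CBX readers of EBs, Cbx7 and Cbx8 had their largest differences for the Eed label, and neither passed over all 4 days. Cbx7 went from 213, 156, 49.6 to 16.2 CPM over the 4 days in J1, but stood at 183, 179, 187 and 111 CPM in the line labelled Eed null (1.16 ± 0.41, limma adjusted p = 0.0761). Without day 0 that difference passed (1.61, limma adjusted p = 0.0457). Cbx7 in the other WT lines was at 129 CPM (Pcl1-3 WT) and 93.4 CPM (JM8) by day 7, so the low level of J1 was not shared. Cbx8 stood at 10.4, 5.49, 8.12 and 9.44 CPM in the line labelled Eed null and at 0.712, 0.289, 1.95 and 10.1 CPM in J1, so that the lines differed at days 0 to 4 and were alike at day 7 (2.24 ± 0.78, limma adjusted p = 0.0711). In the line labelled Mtf2 null, Cbx8 had 0 of 6854365 reads at day 0, which allows up to 0.438 CPM, and then 2.69, 4.45 and 11.9 CPM at days 2, 4 and 7, where Pcl1-3 WT had 1.14, 0.656 and 2.74 CPM, and it passed without day 0 (1.84, limma adjusted p = 0.0418). Of the 27 other PRC1 genes, 2 were higher and 2 lower for the Mtf2 label (18.4% of all genes passed), 1 and 2 for the Jarid2 label (14.8%), and 1 and 1 for the Eed label (10.9%).

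**Figure D3:**
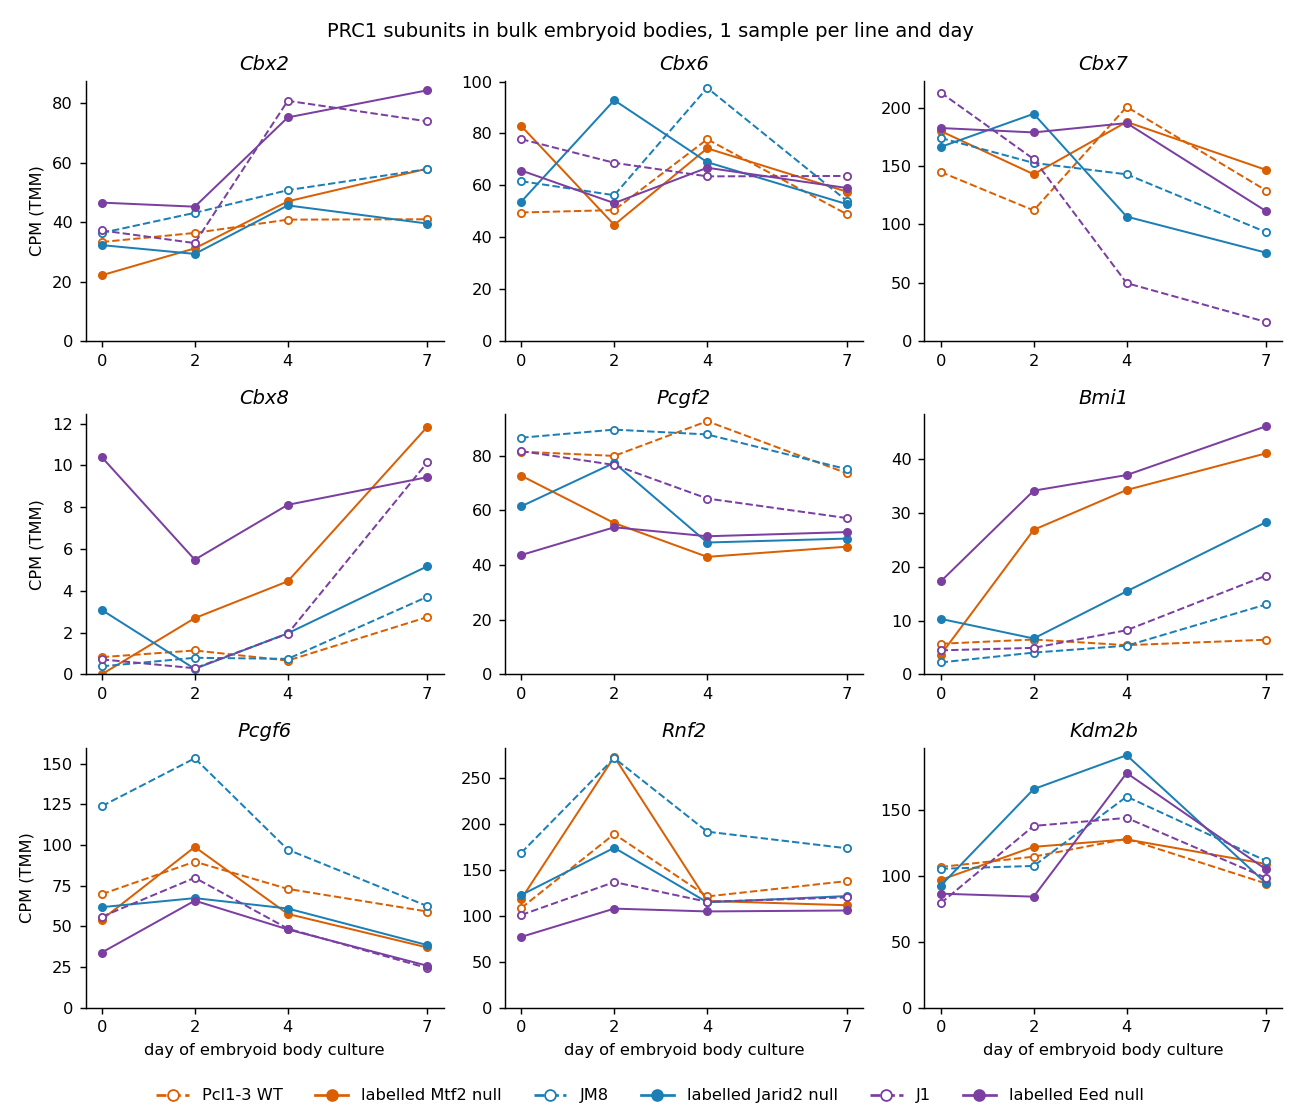
Each panel plots CPM (y axis) of 1 subunit against the day of EB culture (x axis), with 1 sample per point. Solid lines are the lines labelled null and dashed lines of the same colour their matched WT line. Bmi1 lies above its WT line from day 2 on for each label, and Cbx7 of J1 drops to 16.2 CPM by day 7.

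In single cells, Bmi1 was above WT in Eed null cells by over 4-fold at every day and Cbx8 by over 2-fold at days 0, 4 and 10. A fall of Cbx7 and a later rise of Cbx2 were visible in all 4 genotypes. UMIs were summed over the cells of a library and divided by its total, as UMI CPM. With 1 library per genotype and day there was no test, and intervals (95%, exact Poisson) cover counting error only. Bmi1 stood at 50.9, 38.1, 63.3 and 116 UMI CPM in Eed null cells at days 0, 4, 7 and 10, against 6.69, 8.40, 14.1 and 26.5 UMI CPM in WT, ratios of 7.61, 4.53, 4.48 and 4.37. In Mtf2 null cells it stood at 10.5, 11.7, 21.6 and 31.9 UMI CPM and in Jarid2 null cells at 9.97, 12.7, 17.8 and 26.5 UMI CPM, with intervals that overlap WT on each day. Bmi1 was thus higher at each later day from day 4 on in each genotype, with Eed null cells above the rest throughout.

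Cbx8 stood at 15.6, 42.1, 26.3 and 52.2 UMI CPM in Eed null cells. In WT it had 2 and 4 UMIs at days 0 and 4 and then 13.2 and 10.7 UMI CPM. The ratio of Eed null to WT was 23.3 at day 0 (interval 6.15 to 198) and 22.5 at day 4 (8.52 to 84.4). At day 7 it was 2.00, and 1.14 with cells thinned to 2500 UMIs (25.6 against 22.5 UMI CPM). Mtf2 null cells followed WT, with 15.4 and 14.8 UMI CPM at days 7 and 10. Jarid2 null cells stayed low, with 7 UMIs at day 7 and 3 UMIs at day 10, ratios to WT of 0.279 (0.103 to 0.653) and 0.161 (0.0299 to 0.57). By summed UMIs Cbx8 was thus above 10 UMI CPM only from day 7 in WT, from day 0 in Eed null and at no day in Jarid2 null cells. With the mean over single cells instead, Jarid2 null cells were over 2-fold above WT at day 4, with at least 10 UMI CPM. At day 10 Cbx8 was then not among the subunits past 2-fold.

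Cbx7 was lower at each later day in each genotype, going from 224 (207 to 242) to 59.4 (47.3 to 73.6) UMI CPM in WT between days 0 and 10. It went from 203 to 60.5 in Eed null, from 168 to 62.2 in Jarid2 null and from 162 to 43.1 UMI CPM in Mtf2 null cells. Cbx2 was higher at days 7 and 10 than at days 0 and 4, with 31.8, 21.5, 73.5 and 44.3 UMI CPM in WT at days 0, 4, 7 and 10. It reached 110 UMI CPM at day 10 in Eed null, 106 in Mtf2 null and 77.2 in Jarid2 null cells. The level of Cbx2 at day 0 in Mtf2 null cells (31.1, interval 25.8 to 37.2) stood beside 31.8 in WT (interval 25.7 to 38.8). Summed UMIs thus did not show the lower Cbx2 of undifferentiated bulk Mtf2 null libraries, with a mean of 9.70 CPM against 20.3 in WT. With cells thinned to 2500 UMIs, and so on fewer UMIs, Cbx2 was at 29.6 against 44.3 UMI CPM (log2 ratio -0.58). Cbx6 was lower at day 0 in each mutant, at 78.6 (Eed null), 108 (Jarid2 null) and 120 (Mtf2 null) against 172 UMI CPM in WT.

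Kdm2b was highest in Jarid2 null cells, at 142, 108, 92.9 and 82.4 UMI CPM against 65.2, 62.1, 75.8 and 62.2 in WT, a ratio of 2.17 at day 0 (log2 ratio 0.65 with cells thinned to 2500 UMIs). The undifferentiated bulk libraries did not show this, with mean Kdm2b of 68.9 CPM for the Jarid2 null label, 80.8 in WT and 115 in Mtf2 null. Pcgf2 was lower at day 0 in each mutant, at 75.1 to 97.7 against 135 UMI CPM in WT. For Mtf2 null this is opposite to the undifferentiated bulk libraries, where mean Pcgf2 was 67.3 CPM against 48.9 in WT. At days 4, 7 and 10 the Pcgf2 ratios to WT were 1.16, 1.09 and 1.12 in Mtf2 null cells. They were 1.27, 1.16 and 1.26 in Eed null and 0.967, 1.27 and 1.64 in Jarid2 null cells. From day 4 on, single cells thus did not show the lower Pcgf2 of the lines labelled null in bulk EBs. Pcgf6 went from 107 to 58.7 UMI CPM in WT between days 0 and 10. In Jarid2 null cells it stood at 112, 109, 95.5 and 80.1 UMI CPM, ratios to WT of 1.05, 1.76, 1.36 and 1.37. Single cells thus did not show the lower Pcgf6 of the Jarid2 label in bulk EBs, where the WT line was JM8. Rnf2 stayed between 192 and 328 UMI CPM in all 16 libraries, the narrowest range of the 9 as a ratio of highest to lowest. Of the 9 subunits, 3, 2, 1 and 3 differed by over 2-fold from WT in Eed null cells at days 0, 4, 7 and 10, with at least 10 UMI CPM in the higher group. The share of all genes with that much signal was 13%, 18.9%, 12.7% and 19.8%. In Jarid2 null cells the counts were 1, 0, 1 and 1, against 11.2%, 14.7%, 12.3% and 17% of genes, and in Mtf2 null cells 0, 0, 0 and 1, against 11.2%, 11.7%, 8.28% and 14.3%. The libraries also differed in make-up: 6 pluripotency markers summed to 3183 UMI CPM in Eed null cells at day 0 against 2475 in WT, and 5 fibroblast markers to 1732 in Eed null and 1619 in WT at day 10 against 272 and 389 in Jarid2 null and Mtf2 null. The part of this make-up in the subunit levels was not tested.

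**Figure D4:**
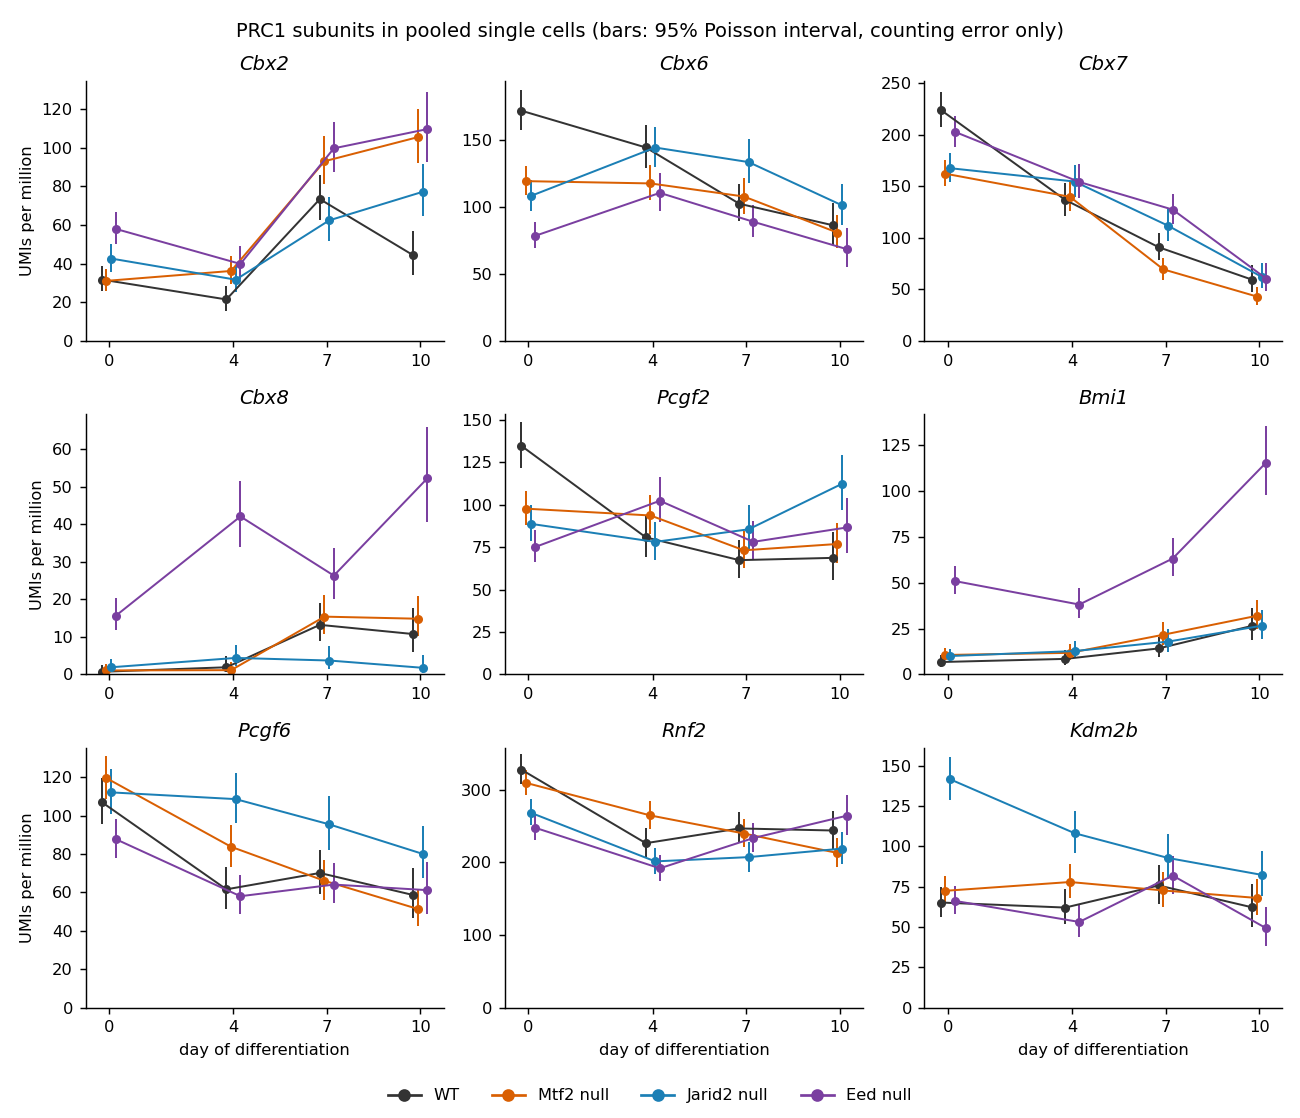
UMI CPM (y axis) of each subunit are plotted against the day of EB differentiation (x axis) for the 4 genotypes, 1 library per point, with 95% Poisson intervals as bars. Cbx7 is lower at each later day in every genotype, and the Eed null line lies above the others for Bmi1, at 50.9 to 38.1 UMI CPM on days 0 and 4 and 116 on day 10.

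The 22 clusters that the authors deposited for these cells (resolution 2.5) show where each subunit was high. They were made from these same cells, so their levels are a description. Cbx7 ranged from 219 UMI CPM in cluster 3, almost wholly WT cells of day 0 (311 of 335 cells were WT), to 16.1 UMI CPM in cluster 15. The other clusters under 30 UMI CPM were 19, 4, 18 and 14, at 21.2, 24.3, 27.7 and 29.2. Their pluripotency markers summed to 44 to 240 UMI CPM, or 428 in cluster 15, against 2554 in cluster 3. Cluster 15 had the highest Cbx2, at 151 (126 to 179) UMI CPM, and the highest sum of 4 neural ectoderm markers, at 788 UMI CPM. Cluster 7, WT cells mostly of day 4, had the lowest Cbx2 at 13.9 UMI CPM. Low Cbx7 did not always go with high Cbx2, since cluster 18 was low in both (24.2 UMI CPM of Cbx2).

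Bmi1 was highest in cluster 13, at 110 (94.1 to 128) UMI CPM, where 197 of 226 cells were Eed null, and lowest in cluster 12, at 6.03 UMI CPM. The next in order, clusters 16, 6 and 10, at 65.1, 52.5 and 44.6 UMI CPM, were also mostly Eed null. Cluster 13 had a fibroblast marker sum of 1829 UMI CPM, and so did cluster 4 (1568), which held 3 Eed null cells of 324 and had 23.8 UMI CPM of Bmi1. Cluster 4 and cluster 13 were close in that sum but differed in other lists. The 5 mesoderm markers summed to 1075 UMI CPM in cluster 4 and 734 in cluster 13, and the 6 pluripotency markers to 132 and 316. The part of cell type in the Bmi1 level was not tested. Cbx8 was highest in clusters of Eed null cells too, at 46.2, 45.8 and 37.4 UMI CPM for clusters 13, 9 and 16, and had 0 of 962256 UMIs in cluster 17, which allows up to 3.12 UMI CPM. In cluster 4 itself Cbx8 stood at 20.2 UMI CPM in WT and 19.4 in Mtf2 null cells. Kdm2b was highest in cluster 8, at 155 (140 to 171) UMI CPM, which held 250 Jarid2 null cells of 265, and Cbx6 in cluster 11 at 189. Pcgf2, Pcgf6 and Rnf2 varied less, between 43.1 and 132, 31.2 and 119, and 144 and 330 UMI CPM.

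**Figure D5:**
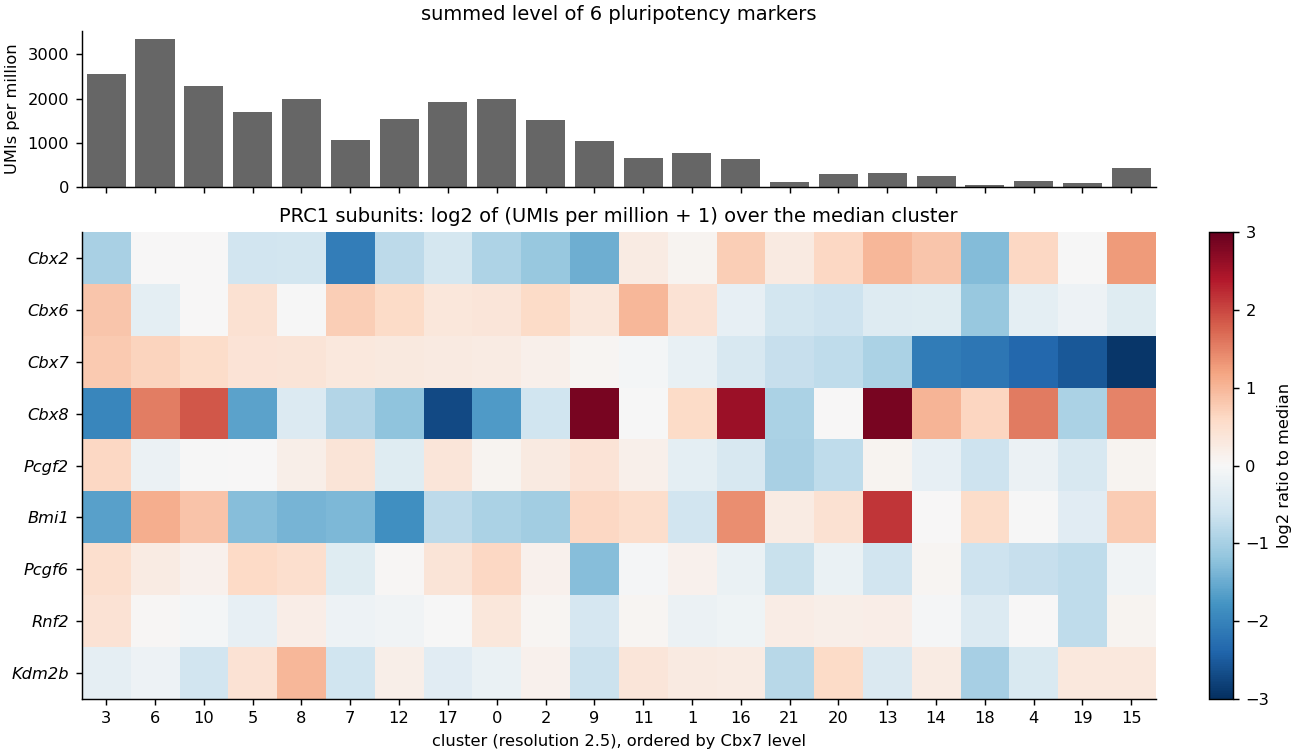
The lower panel colours each subunit (rows) in each cluster (columns, ordered by Cbx7) by the log2 ratio of UMI CPM plus 1 to its median cluster, and the upper panel gives the summed level of 6 pluripotency markers in the same order. The clusters at the right, lowest in Cbx7, have few pluripotency UMIs, and clusters 13, 16, 6 and 10 are red for Bmi1.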

How the data were processed

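Bulk and single-cell RNA of mouse ESC lines was measured. Per the labels, reads were handled with CASAVA, Bowtie2, HTSeq, Salmon and DESeq2 (versions not given in the sources used here) on GRCm38/mm10. The authors deposited estimated counts per gene for the directed series, which were rounded here. For EBs the authors deposited counts divided by size factors (a normalized signal). Whole reads were recovered from 45 of 46 columns (100% of values within 0.02 of a whole number), the other column was left out, and columns of 1 sample were summed. For single cells the authors deposited UMI counts and cluster calls. All 384 cell barcodes occur in more than 1 library, so cells were told apart by library and barcode, and no doublet caller was run.

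Groups came from the labels. The 9 subunits and the list of 27 other PRC1 genes were chosen with earlier results of these data known. Named genes were all 9 subunits and, of the other PRC1 genes, up to 3 per comparison past the study's limits. One gene that this rule names is not reported here. Directed counts were tested with edgeR 4.0.16 (quasi-likelihood F test, TMM, filterByExpr with a minimum count of 10; 24 libraries per series, or the 12 undifferentiated ones with series as covariate), and EB reads with limma 3.58.1 on log2 CPM (prior count 2, at least 1 CPM in 4 samples, all 24 samples, day as block), with Benjamini-Hochberg adjustment over all genes tested (18361 in mesoderm, 19261 in endoderm, 16655 undifferentiated, 19601 for both series, 15837 in EBs). RPKM used exon length. The 2 libraries of each directed group differed by 2.37 to 17.1 times the sampling noise (chi-square per degree of freedom), so none was counted as 1 library. On simulated data, the mesoderm fit for Mtf2 null at 48 h recovered 7.41%, 24.3% and 82.9% of 1.5-, 2- and 4-fold changes. The undifferentiated Mtf2 null fit recovered 26.3%, 77.3% and 98.6%, and the EB fit for the Eed label 29.9%, 63.1% and 100%. A subunit that did not pass may thus still differ. The simulated spread was set wider than that of the directed fits. For EBs the simulation held no differences between days or lines beyond the changes put in. The EB shares may therefore be too high for the real samples. Poisson intervals and floors of 3 counts cover counting error only. Alternatives were DESeq2 1.42.0, other size factors, filters, prior counts, limits and samples, a replicate block, libraries or days left out and, for single cells, thinning to 2500 UMIs (492 shallower cells left out), means of cells, leaving out the 5% of cells with most UMIs, and a 1.5-fold limit.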

Additional observations from a re-analysis of the deposited data

Results flagged for a closer look

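The effect of Mtf2 loss at 48 h differed from that in undifferentiated cells, by a test of the difference itself, for Cbx2 (1.02 in mesoderm and 1.52 in endoderm on the log2 scale), for Rnf2 (-0.61 and -0.55) and, in endoderm, for Cbx8 (4.03, on 3 counts over both WT libraries at 48 h). The WT change over 48 h differed between the mesoderm and endoderm protocols for Cbx2 (0.91) and Cbx8 (3.56), again by a test of the difference. Pcgf6 in undifferentiated Mtf2 null cells had 1 library apart from the other 3, the mesoderm replicate 2 at 41.6 CPM. Of 27 groups looked at in this way, chance alone would set apart about 1 in 20.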

How the results depend on the processing

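No call reversed its direction under the alternatives tried. Of 1388 single-gene values with a library or day left out, 1221 kept their side of the test, 133 no longer passed and 34 newly passed. Of 2016 under other alternatives, 1899 stayed the same, 65 no longer passed, 44 newly passed and 8 moved. Values that passed in neither fit are among those kept or the same. The 2016 include single-cell ratios, which had no test and were set against a range from counting error. The causes were not tested. Under the study's limits the count of subunits past the test went from 7 to 1 in undifferentiated Mtf2 null cells, from 5 to 1 in WT mesoderm and from 3 to 1 in Mtf2 null endoderm at 48 h, and to 0 for Mtf2 null mesoderm, Jarid2 null endoderm, Jarid2 null undifferentiated cells, WT endoderm and the difference between protocols. With only the groups compared in the fit it was 1 in WT mesoderm (from 5), 1 in Mtf2 null endoderm (from 3), 1 in Jarid2 null endoderm (from 3) and 0 for the difference between protocols (from 2). With a minimum count of 30 it was 5 in WT endoderm (from 3), 2 in undifferentiated Jarid2 null (from 1) and 1 for the difference between protocols. DESeq2 gave 2 in undifferentiated Jarid2 null, 1 in Jarid2 null mesoderm (from 0) and 1 for the difference between protocols. With same-numbered undifferentiated libraries summed, an alternative chosen after seeing the data, 4 remained for Mtf2 null and 0 for Jarid2 null.

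With the replicate number as a block, undifferentiated Jarid2 null cells had 3 subunits past the test (from 1), and no other count moved by over 1.5 times. Deviations of same-numbered libraries correlated above 0.1 in 6 of 66 pairs of groups in mesoderm and 4 of 66 in endoderm, so the numbers were not taken to pair the groups. The highest correlation in each series, 0.267 and 0.201, was between undifferentiated Jarid2 null and WT, the comparison that the block moved.

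In EBs no subunit passed without the day as a block for any label (0 each). Of all 15837 genes, 641, 540 and 172 passed in that fit for the Mtf2, Jarid2 and Eed labels. With only the label and its WT line, 0 passed for the Mtf2 label (1123 of 14132 genes) and 1 for the Eed label (1397 of 14565 genes). For the Eed label 1 also passed with deposited values plus 1 (1789 genes), with edgeR on recovered reads (1452) and with no filter (1466). Leaving out 1 library or day gave 5 to 7 subunits for undifferentiated Mtf2 null, 1 to 2 for Jarid2 null, 0 to 1 for Mtf2 null and 0 to 0 for Jarid2 null mesoderm at 48 h, 3 to 4 for WT mesoderm, 1 to 4 for Mtf2 null and 0 to 6 for Jarid2 null endoderm, 2 to 5 for WT endoderm, 0 to 1 for the difference between protocols, and 0 to 3, 1 to 4 and 0 to 2 for the Mtf2, Jarid2 and Eed labels.

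In single cells a 1.5-fold limit gave 5 and 2 subunits in Eed null at days 0 and 7 (from 3 and 1), 3 in Jarid2 null at days 0, 4 and 10 (from 1, 0 and 1) and 1 in Mtf2 null at days 0, 4 and 7 (from 0). Thinning gave 2 for Jarid2 null and 1 for Mtf2 null at day 4 and 0 for Mtf2 null at day 10 (from 1). Means of cells gave 1 for Jarid2 null at day 4 (Cbx8, higher), and at day 10 put Cbx2 in the place of Cbx8. Without the 5% of cells with most UMIs it was 1 and 2 for Jarid2 null at days 4 and 7 (from 0 and 1) and 1 for Mtf2 null at day 7 (from 0). At this depth Cbx8 had 2 and 1 counts in the WT endoderm libraries at 48 h.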
